A study of Mus musculus with 2 samples.

Results

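Serpins are a superfamily of proteins built on one fold, and most of them inhibit proteases. The protease cuts an exposed loop of the serpin, the reactive centre loop, and the cut loop then folds into the body of the serpin and traps the enzyme. The family is divided into lettered clades. Clade A holds secreted plasma inhibitors such as alpha-1-antitrypsin, whose lack in people leads to emphysema because neutrophil elastase goes unchecked in the lung. Clade B holds inhibitors that stay inside cells, clades C, D, E and F hold regulators of clotting, of plasminogen and of growth, clade H holds a collagen chaperone that inhibits nothing, and clade I holds neuroserpin.

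The serpin genes described here are the rows of the expression table whose symbol begins with Serpin followed by a clade letter from a to i and a number, without Serping1, the complement C1 inhibitor gene. There were 62 such rows among 24369. They were measured in type II pneumocytes (alveolar type 2 cells, which make surfactant) sorted from the lungs of wild-type C57BL6 mice at postnatal day 28 (P28) and postnatal day 7 (P07). There was 1 library per age, the sources used here do not name the sort markers, and the labels name no treatment for either group. Values are RPKM (a read number divided by gene length and by library depth), so levels can be compared between genes.

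With 1 library per age, nothing below has a replicate check or a p-value, and "higher" and "lower" compare 2 libraries. The spacing of the lowest values gave about 24500000 reads behind the RPKM scale at P28 and 17600000 at P07. Intervals of a ratio are 95% exact (Clopper-Pearson) intervals from the read numbers recovered in this way, and they cover counting error only. All 12 type 2 cell markers were measured at 1 RPKM or more, led by Sftpc, the surfactant protein C gene, with 24085 RPKM at P28 and 13343 at P07, and by Cxcl15, with 1820 and 1012. Markers of other lung epithelium were present too. The club cell marker Scgb1a1 had 18104 RPKM at P28 and 6764 at P07, so the serpin levels are those of a sorted population with such transcripts in it. Xist had 0.245 RPKM at P28 and 52.7 at P07, and the Y-linked gene Ddx3y had 4.01 and 0, so age and the sex of the animals cannot be told apart. The total RPKM was 143071 at P28 and 108758 at P07. Bringing both libraries to the same total shifted the median over all genes by -0.29 on the log2 scale, and values after this rescaling are given as "with equal totals". Sftpc and Scgb1a1 were a large part of both totals and of the gap between them. Rescaled values and shares of the total RPKM depend on these genes, and the rescaling lowers P28 relative to P07 for every gene.

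Of the 62 serpin genes, 8 reached 1 RPKM in at least 1 library, which is 12.9% of them, while 39.6% of all rows did. These were Serpinb6b, Serpinb9, Serpinb6a and Serpinb8 of clade B, Serpine2 of clade E, Serpinh1, Serpinf1 and Serpind1. All 8 reached 1 RPKM at P28 and 7 did so at P07, where Serpind1 fell short. Another 23 genes had at least some signal below 1 RPKM, and 31 were listed at 0 in both libraries. Of all 24369 rows, 8469 were listed at 0 at P28 and 8468 at P07, each library taken alone. Rows at 0 in both libraries were not counted over all rows, so the 31 has no like share beside it. The highest value among the 54 that stayed below 1 RPKM in both libraries was 0.404 RPKM, and the lowest value of any of the 8 was the 0.856 RPKM of Serpind1 at P07. The 8 genes therefore held nearly all of the serpin signal, and the other 54 together had 2.25 RPKM at P28 and 1.80 at P07.

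**Figure D1:**
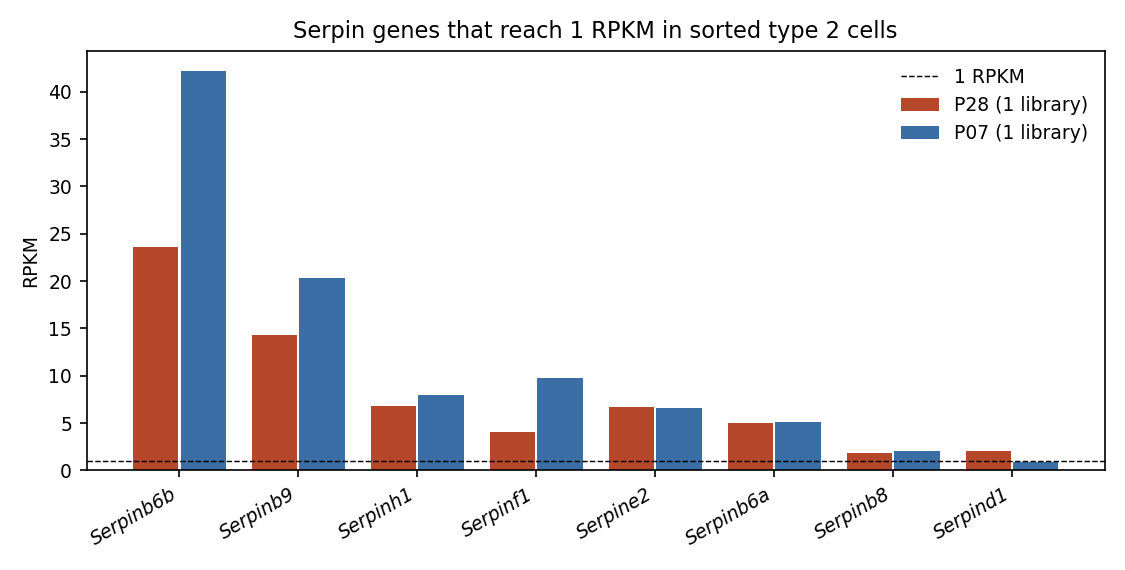
RPKM (linear axis from 0) of the 8 serpin genes that reach 1 RPKM, with the P28 library left and the P07 library right for each gene, 1 library per age and no error bars. Serpinb6b leads at both ages with 23.6 RPKM at P28 and 42.2 at P07, and Serpind1 is the gene that crosses the dashed line of 1 RPKM between the libraries.

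The reactive centre loop begins with a hinge, rich in small residues, that lets the cut loop fold away. A recognisable hinge is a sequence mark of many inhibitory serpins. The coding sequences of the 8 genes were searched for it. A strict hinge motif (in the protein, glutamate, then glutamate, lysine or arginine, then glycine, threonine or serine, glutamate and small residues) was found in 4 of the 8, all clade B. A relaxed form of it, chosen after the strict one had been tried, was found in 6 of the 8, with Serpind1 and Serpine2 added. Serpinf1 and Serpinh1 had neither form, and both encode serpins known not to inhibit proteases. Serpinf2 and Serpina10, which encode inhibitors and stay below 1 RPKM, had neither form too, so these motifs do not sort inhibitors from other serpins. Among all 60 serpin genes with a coding sequence, 20 held the strict form and 41 (68.3%) the relaxed one. Among 22017 coding genes searched in the same last 40% of the protein, 22 held the strict form and 2.05% the relaxed one. No match says only that these letters are not there.

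The stretches below show where the members that reach 1 RPKM and hold either form are alike and where they differ. Each is the coding strand of the GENCODE transcript on GRCm38, 5′ to 3′, from the first base of the hinge for 72 bases. The first 21 bases, counted here as the hinge, are in capitals and the following 51 bases in lower case. In the clade B genes the lower case begins with the last codon of the strict motif. The end of the loop was not marked.
Serpinb6b: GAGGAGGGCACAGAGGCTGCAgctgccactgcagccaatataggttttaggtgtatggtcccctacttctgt
Serpinb6a: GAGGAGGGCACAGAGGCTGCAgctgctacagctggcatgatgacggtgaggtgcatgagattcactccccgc
Serpinb9: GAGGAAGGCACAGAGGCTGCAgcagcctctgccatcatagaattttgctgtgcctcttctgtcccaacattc
Serpinb8: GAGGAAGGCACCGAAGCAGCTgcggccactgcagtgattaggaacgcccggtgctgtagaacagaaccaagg
Serpind1: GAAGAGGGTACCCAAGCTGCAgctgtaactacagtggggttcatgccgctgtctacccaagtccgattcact
Serpine2: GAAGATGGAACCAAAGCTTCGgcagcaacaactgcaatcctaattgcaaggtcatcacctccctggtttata

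The hinge bases of Serpinb6a and Serpinb6b were identical at 21 of 21 positions, and those of Serpinb9 matched Serpinb6b at 20 of 21. Past the hinge, Serpinb6a and Serpinb6b matched at 26 of 51 bases, and Serpinb9 and Serpinb6b at 17 of 51. The stretches were found and lined up by the hinge motif. Likeness in the hinge was thus partly fixed by the search, and its share cannot be set against the share after it. How much sequence genes share also bears on counting. Of the stretches of 50 bases in the Serpinb6b transcript, 3.13% occur in a transcript of another gene, and for Serpinb9 the share was 0.388%. It was 0.175% for Serpinb8 and 0 for Serpine2, Serpinf1, Serpinh1 and Serpind1. For Serpinb6a it was 22.0%, mostly in 1110046J04Rik, a noncoding gene that overlaps it on the other strand. Nothing in the sources used here states that the counting used strand, so the Serpinb6a value is uncertain to that extent. Serpinb6a also overlaps Nqo2 and Ripk1, and Serpind1 lies within Pi4ka, each on the opposite strand.

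Clade B, the intracellular serpins, held most of the family's signal in type 2 cells. Its 27 genes summed to 45.2 RPKM at P28 and 70.1 RPKM at P07, or 67.8% and 72.3% of the serpin total of each library. Of these genes 4 reached 1 RPKM, 7 had less, and 16 were listed at 0 in both libraries. The 4 include relatives of the human inhibitors of granule proteases, which are known to protect cells from their own or from lymphocyte proteases.

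Serpinb6b was the most abundant serpin of both libraries. Mouse Serpinb6b is a close relative of Serpinb6a, and it lies on chromosome 13 at 32965209 to 32979067 (GRCm38, plus strand). Serpinb6b had 23.6 RPKM at P28 and 42.2 RPKM at P07, from about 1271 and 1625 reads. It ranked 544 among all rows at P28 and 281 at P07. The plain ratio of P28 to P07 was 0.560, with an interval of 0.520 to 0.603, or 1.79-fold lower at P28. On the log2(RPKM + 1) scale, used for calls with a threshold of 2-fold, the ratio was -0.81, which is within 2-fold. With equal totals it was -1.19 and past 2-fold, a call that 4.61% of all genes then had in that direction, and 0.673% in the other.

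Serpinb9, the mouse counterpart of the granzyme B inhibitor, is the next protein-coding gene on the same strand, at 33003250 to 33017957. Serpinb9 had 14.3 RPKM at P28 and 20.4 RPKM at P07, from about 1193 and 1214 reads. Its ratio was 0.703 (0.649 to 0.762), and its log2 ratio was -0.48, or -0.85 with equal totals. Together with Serpinb6b it made up 56.9% of the serpin RPKM at P28 and 64.6% at P07. Both genes were lower at P28 and neither passed 2-fold as deposited.

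Serpinb6a, an inhibitor of trypsin-like proteases and of cathepsin G, is on the same chromosome at 33917918 to 34002794, minus strand. It had 5.02 RPKM at P28 and 5.14 RPKM at P07, a ratio of 0.976 (0.781 to 1.22). The level of Serpinb6b was thus 4.71 times that of Serpinb6a at P28 and 8.21 times at P07. Serpinb8, which inhibits furin in human cells, is at 107590006 to 107610484 on chromosome 1, plus strand. It had 1.83 RPKM at P28 and 2.11 RPKM at P07, a ratio of 0.869 (0.691 to 1.09). For both genes the counting interval held 1, so these depths do not separate the libraries.

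The promoters of Serpinb6b and Serpinb9 are shown because these genes lie side by side and both had lower values at P28. Each is the 250 bases before the RefSeq start on GRCm38.p6, plus strand, 5′ to 3′, with motif matches in capitals. For both genes the RefSeq start lies downstream of the first base of the GENCODE gene, so some or all of the printed bases fall within that gene.
Serpinb6b, chr13:32965011-32965260: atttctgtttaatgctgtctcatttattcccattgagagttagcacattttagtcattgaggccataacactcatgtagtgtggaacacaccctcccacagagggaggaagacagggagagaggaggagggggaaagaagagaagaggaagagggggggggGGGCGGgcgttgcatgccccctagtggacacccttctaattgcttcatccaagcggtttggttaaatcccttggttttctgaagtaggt
Serpinb9, chr13:33004291-33004540: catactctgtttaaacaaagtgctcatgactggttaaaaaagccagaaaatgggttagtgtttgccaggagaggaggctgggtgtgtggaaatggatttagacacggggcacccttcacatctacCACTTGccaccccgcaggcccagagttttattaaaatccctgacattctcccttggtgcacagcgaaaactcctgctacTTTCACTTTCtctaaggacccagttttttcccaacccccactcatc
Both strands were searched for 8 motifs. Serpinb6b held a GC box (GGGCGG), as did 32.7% of 32851 promoters of this length. Serpinb9 held the core CAAGTG, read as CACTTG on this strand and present in 11.6% of promoters, and an interferon element (GAAA, any 2 bases, GAAA), matched on the other strand and present in 2.98%. Neither held TATAAA (12.4% of promoters), CCAAT (33.8%), TGANTCA (6.75%), GAANNTTC (6.69%) or TGTTCT (16.1%), and the pair shared none of the 8. A match describes letters only.

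The remaining clade B genes were near 0. Serpinb1a, the inhibitor of neutrophil elastase, had 0.276 RPKM at P28 and 0.118 RPKM at P07, from about 13 and 4 reads, a ratio of 2.33 whose interval of 0.718 to 9.79 held 1. Serpinb9b had 0.0843 RPKM at P28 and no read at P07. Of 15 clade B genes in the chromosome 13 cluster, Serpinb6b, Serpinb9 and Serpinb6a stood above 1 RPKM, and their neighbours Serpinb9c, Serpinb9d, Serpinb9e, Serpinb9f, Serpinb9g, Serpinb6d and Serpinb6e were listed at 0. Reads of Serpinb9f and Serpinb9g could be lost to near copies, since 78.7% and 54.8% of their stretches of 50 bases occur in other genes. In the chromosome 1 cluster, which holds the squamous epithelial serpins, Serpinb8 alone passed 1 RPKM. Serpinb5 (maspin), Serpinb2 (plasminogen activator inhibitor 2) and the Serpinb3 genes there were listed at 0 in both libraries.

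**Figure D2:**
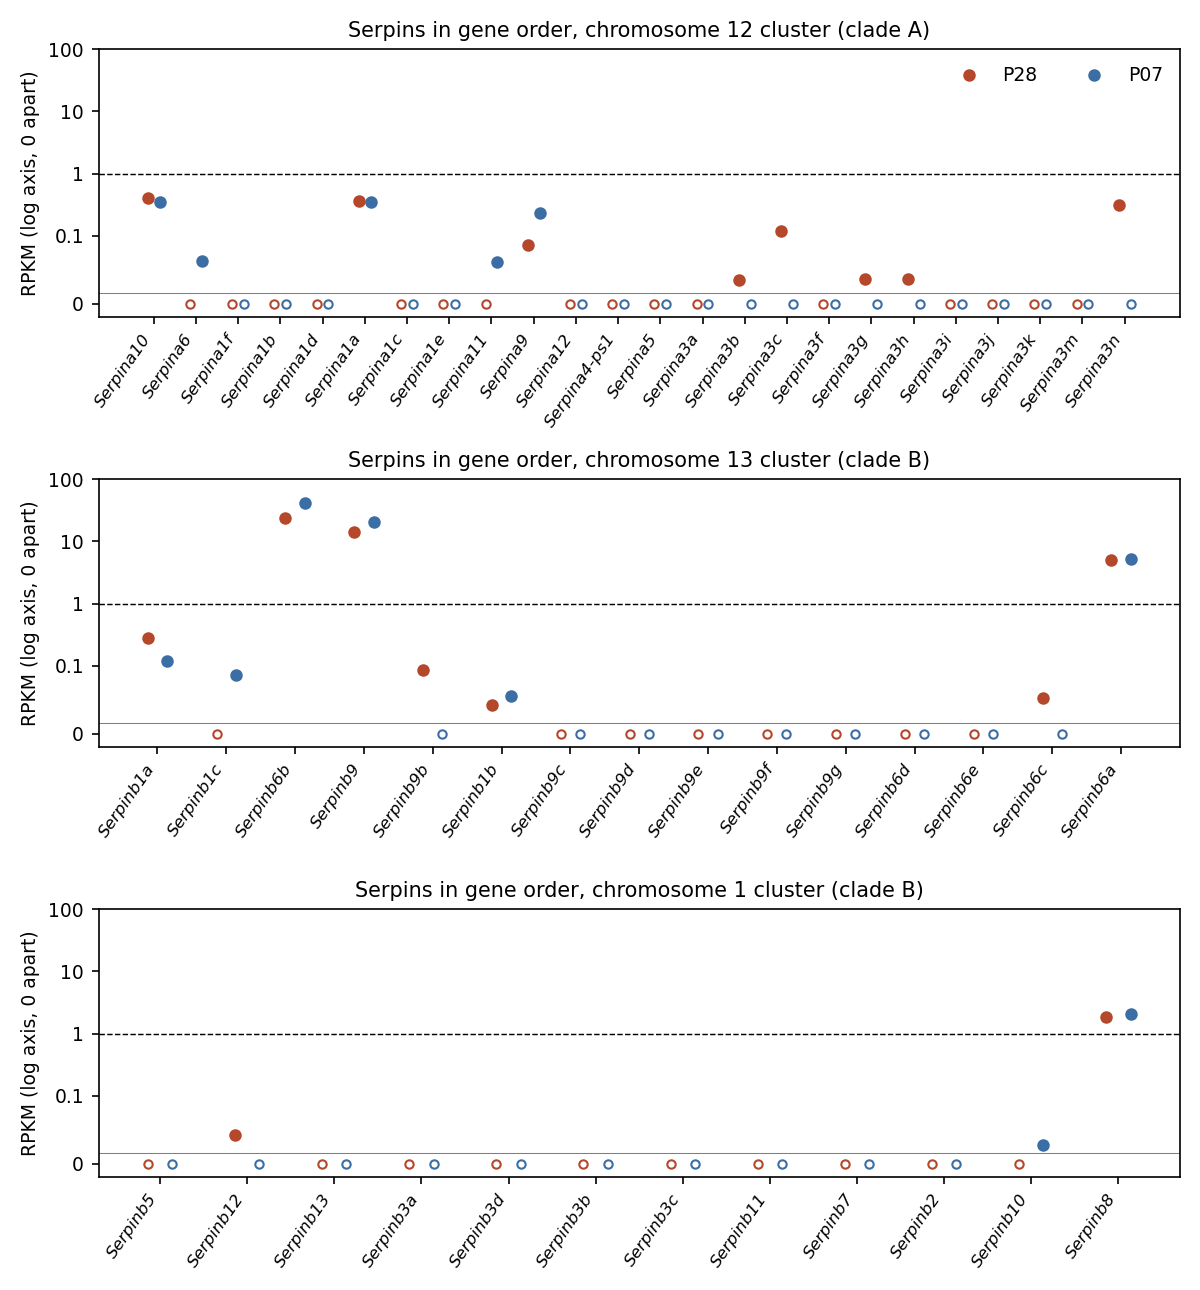
RPKM on a log axis, with values of 0 as open circles on a separate row under the grey line, for the serpin genes in the chromosome 12, chromosome 13 and chromosome 1 clusters in gene order, P28 left and P07 right for each gene. No gene of the chromosome 12 cluster reaches the dashed line of 1 RPKM, against 3 on chromosome 13 and Serpinb8 on chromosome 1.

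Clade A, the plasma antiproteases, had 25 genes, none at 1 RPKM. They summed to 1.41 RPKM at P28 and 1.31 RPKM at P07, 2.11% and 1.35% of the serpin total. Mice carry several near-identical genes for alpha-1-antitrypsin. One of them, Serpina1a, had 0.356 RPKM at P28 and 0.354 RPKM at P07, from about 13 and 9 reads, and Serpina1b, Serpina1c, Serpina1d and Serpina1e were listed at 0. Of the 50-base stretches in these genes, 37.9% (Serpina1e) to 79.3% (Serpina1c) occur in another gene, so the split between copies is uncertain and reads common to several could be missing. Serpina10, an inhibitor of clotting factor X, was the highest of the clade on average, with 0.404 RPKM at P28 and 0.353 RPKM at P07.

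A few clade A genes below 1 RPKM differed in counts between the libraries. Serpina3n, an acute-phase antichymotrypsin of the mouse, had 0.312 RPKM at P28, from about 16 reads, and no read at P07. Against a floor of 3 reads in the P07 library it was at least 3.77-fold higher at P28. Serpina3c had about 7 reads at P28 and none at P07, and against the same floor was at least 1.56-fold higher. Serpina7, the carrier of thyroid hormone in plasma, had 0.0862 RPKM at P28 and 0.289 RPKM at P07, or 3.35-fold lower at P28 (1.10 to 12.2). Serpina9, a serpin of germinal centre B cells in people, had 0.0720 RPKM at P28 and 0.235 RPKM at P07, or 3.26-fold lower (1.28 to 11). These rest on 16 reads or fewer in each library, and all 4 are under the filter for calls.

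Among the 8 genes, Serpind1 was the one whose counting interval lay wholly above 1. It encodes heparin cofactor II, a thrombin inhibitor made mainly by liver, and lies on chromosome 16 at 17331371 to 17343575, plus strand. It had 2.03 RPKM at P28 and 0.856 RPKM at P07, from about 105 and 32 reads. The plain ratio was 2.37 (1.57 to 3.61). With a pseudocount of 1 the log2 ratio was 0.70, within 2-fold, and with a pseudocount of 0.1 it was 1.15. With equal totals it was 0.48, so Serpind1 was the only 1 of the 8 with a ratio above 1 on both scales.

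Serpine2, protease nexin 1, inhibits thrombin, urokinase and plasmin at cell surfaces. It lies on chromosome 1 at 79794197 to 79861180, minus strand. It had 6.75 RPKM at P28 and 6.63 RPKM at P07, a ratio of 1.02 (0.866 to 1.20). Its log2 ratio of 0.02 became -0.32 with equal totals. Serpine3 had 0.0290 RPKM at P28 and 0.0405 RPKM at P07, about 1 read in each library. Serpinc1, antithrombin, had 0.207 RPKM at P28 and 0.105 RPKM at P07, but 58.8% of the 50-base stretches of its transcript also occur in Zbtb37. Serpinf2, the plasmin inhibitor, had 0.0742 RPKM at P28 and no read at P07.

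Serpinf1 was the 1 of the 8 genes called lower at P28, and none was called higher. Among the 9653 genes that reach 1 RPKM in either library, 1.96% were 2-fold or more lower and 1.18% 2-fold or more higher, 3.14% in all. With 8 genes, 1 call is too few to set the serpins apart from that background. Serpinf1 encodes pigment epithelium-derived factor, a secreted serpin that restrains blood vessel growth and is not a protease inhibitor, and lies on chromosome 11 at 75409769 to 75422701, minus strand. It had 4.08 RPKM at P28 and 9.77 RPKM at P07, from about 184 and 314 reads. It was 2.39-fold lower at P28 (1.98 to 2.88), with a log2 ratio of -1.08, and -1.42 with equal totals. With a pseudocount of 5 the log2 ratio was -0.70 and the call was lost.

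The summed levels of stromal, vessel, mesothelial and type 1 cell markers were also lower in the P28 library, though not every marker was. Among all measured genes 1.96% were called lower and 1.18% higher, or 4.61% and 0.673% with equal totals. Of 14 fibroblast and smooth muscle markers, which summed to 15.8 RPKM at P28 and 41.2 RPKM at P07, 8 were measured at 1 RPKM, of which 4 were lower and none higher. The most abundant were Eln (elastin), with 3.77 RPKM at P28 and 10.2 at P07, and Fbln5, with 2.08 and 10.6. Dcn, which was measured, had 1.35 RPKM at P28 and 0.490 at P07. Pdgfra had 0.730 RPKM at P28 and 0.152 at P07, and Lum had 0.118 RPKM at P28 and was listed at 0 at P07. Of 12 endothelial markers, 9 were measured and 5 were lower, with sums of 26.5 RPKM at P28 and 52.4 RPKM at P07 and none at 0. Esam led them with 10.2 RPKM at P28 and 9.68 at P07, and Calcrl had 5.68 and 12.4. Of 5 mesothelial markers 2 were measured at 1 RPKM, with sums over the list of 4.91 RPKM at P28 and 7.79 at P07. Msln was called lower, with 1.19 RPKM at P28 and 5.24 at P07, while Upk3b had 2.04 and 1.23. Of 10 type 1 cell markers, all measured, 2 were called lower (6 with equal totals) and none higher, with sums of 266 RPKM at P28 and 448 at P07. Ager led them with 89.1 RPKM at P28 and 119 at P07, Emp2 had 42.3 and 72.5, and Akap5, called lower, had 21.7 and 78.9. The part of these cells in the Serpinf1 value was not tested, and in sorted cells measured in bulk fewer cells of a type and less RNA per cell cannot be told apart.

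Serpinh1 encodes HSP47, a chaperone that binds procollagen in the endoplasmic reticulum. It lies on chromosome 7 at 99345376 to 99353239, minus strand. It had 6.82 RPKM at P28 and 8.02 RPKM at P07, from about 368 and 309 reads. The ratio was 0.851 (0.731 to 0.995) and the log2 ratio -0.20, or -0.55 with equal totals. Among its partners in collagen making and the collagens themselves, 30 of 39 listed genes were measured at 1 RPKM. Of these 6 were lower, none was higher and 24 lay within 2-fold, against 1.96% lower and 1.18% higher among all measured genes. The median log2 ratio of the list was -0.70 against -0.08 for all genes. With equal totals 14 of the 30 were lower, against 4.61% of all genes, with a median of -0.97 against -0.38. The basement membrane collagen genes Col4a1 (14.5 RPKM at P28 and 31.4 at P07) and Col4a2 (15.9 and 36.7), the matrix protein gene Sparc (117 and 240), and Lox, P3h2 and P4ha3 were those called lower. Prolyl hydroxylase subunit gene P4hb had 50.5 RPKM at P28 and 67.3 at P07, and the isomerase gene Ppib had 42.6 and 38. Serpinh1 lay within 2-fold on both scales.

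**Figure D3:**
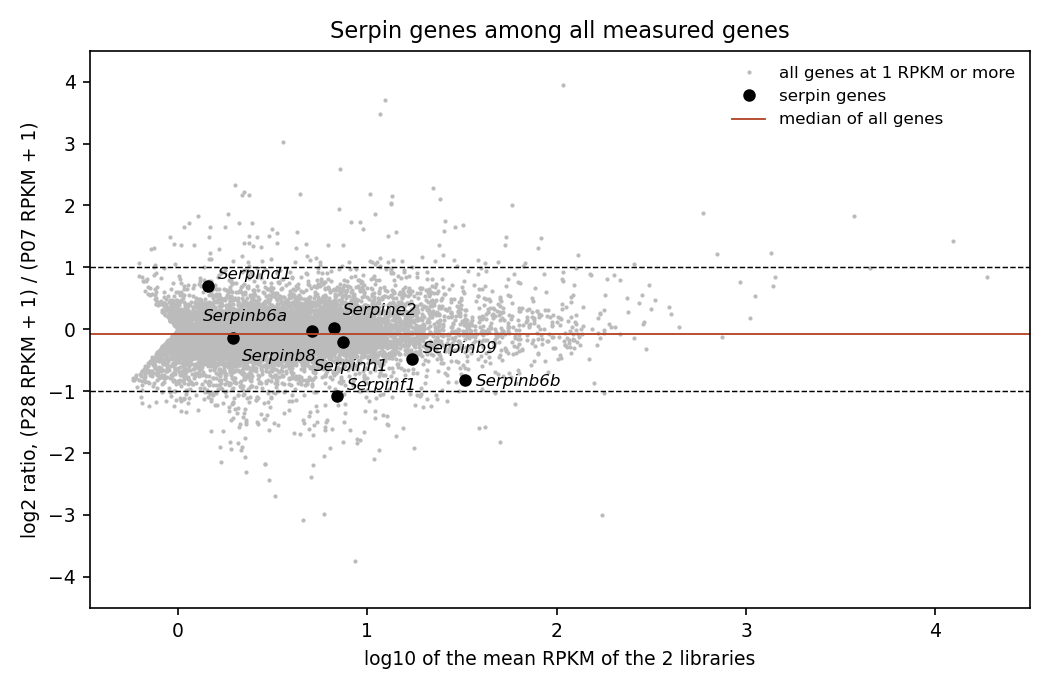
Log2 ratio of (P28 RPKM + 1) to (P07 RPKM + 1) against the log10 of the mean RPKM, for 9653 genes (grey) and the 8 serpin genes (black), with dashed lines at 2-fold, a red line at the median of all genes and 1 grey gene outside the axis. Serpinf1 lies below the lower dashed line at -1.08, and the other 7 lie between the lines.

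**Figure D4:**
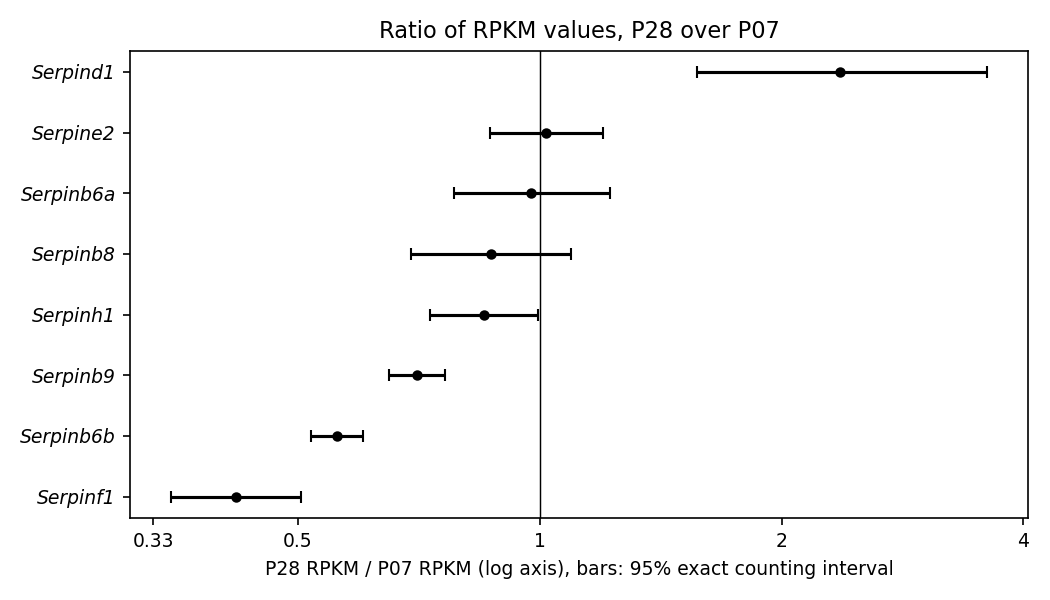
Ratio of the P28 RPKM to the P07 RPKM (log axis) of the 8 serpin genes, with bars for the 95% exact counting interval. The bars of Serpinf1, Serpinb6b, Serpinb9 and Serpinh1 end below 1, that of Serpind1 begins above 1, and those of Serpinb8, Serpinb6a and Serpine2 cross 1.

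Over the 8 genes the median log2 ratio was -0.17, against -0.08 for all 9653 genes, and with equal totals it was -0.48 against -0.38. Counting intervals lay wholly below 1 for 4 of the 8 and wholly above 1 for 1. The same held for 33.2% and 18.1% of the 9282 genes at 1 RPKM that have a transcript length, so an interval that leaves out 1 was common among all genes. The sum over all 62 serpin rows was 66.7 RPKM at P28 and 96.9 RPKM at P07, a ratio of 0.689. That was 0.0466% of the total RPKM at P28 and 0.0891% at P07. Without Serpinb6b the sums were 43.1 and 54.7 RPKM, a ratio of 0.788. Neuroserpin, Serpini1, had about 3 reads at P07 and none at P28, and Serpini2 was listed at 0.

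Other antiprotease genes, pooled over several families, summed to more RPKM than the serpins in the same cells. The list used for them held 40 genes, not all of them known protease inhibitors (Anxa1 is an annexin gene). Of these, 38 were in the table and 13 were measured at 1 RPKM. The list summed to 616 RPKM at P28 and 497 RPKM at P07. Wfdc2, a secreted protein with whey acidic protein domains, led it with 384 RPKM at P28 and 233 at P07. Timp3, a matrix-bound inhibitor of metalloproteases, had 36.8 and 61.5 RPKM, and Cst3 (cystatin C) had 56.3 and 41.9. In this list 1 gene was called higher, Itih4, an inter-alpha-inhibitor heavy chain with 22.1 RPKM at P28 and 4.63 at P07, and 1 was called lower, Wfdc1, with 0.313 and 2.23. The other 11 measured genes lay within 2-fold, with a median log2 ratio of -0.32 over the list. With equal totals 5 were lower and 1 higher, with a median of -0.68, and Timp3, Anxa1, Spink5 and Timp2 were those added. Among all measured genes 1.96% were called lower and 1.18% higher, or 4.61% and 0.673% with equal totals. Of 9 club and goblet cell markers 7 were called higher, with sums of 19247 RPKM at P28 and 7343 at P07. Of 8 ciliated cell markers none was called, with sums of 210 RPKM at P28 and 215 at P07. The part of airway cells in Wfdc2 and Itih4 was not tested.

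On a list of serine proteases, not all of them classical serpin targets, most genes were below 1 RPKM in the sorted cells. Of its 43 genes, 9 were measured at 1 RPKM, while 39.6% of all rows were. None of the 9 was 2-fold apart, against 3.14% of all measured genes. With equal totals 1 was called lower, Tmprss2, and none higher, against 4.61% and 0.673% of all measured genes. Of all 24369 rows, 8469 were listed at 0 at P28 and 8468 at P07, each library taken alone. On the list, 15 of the 43 genes were listed at 0 in both libraries, a count that was not made over all rows. Those listed at 0 included Elane (neutrophil elastase), Ctsg (cathepsin G), Gzmb (granzyme B) and Plg (plasminogen). Plau (urokinase) had 0.0347 RPKM at P28 and 0.0969 at P07, and Plat (tissue plasminogen activator) had 0.241 and 0.538. The most abundant were the membrane proteases of epithelia. Prss8 (prostasin) had 13.8 RPKM at P28 and 17.8 at P07, Dpp4 had 12.2 and 14.6, and Tmprss2 had 7.07 and 11.9.

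Lysosomal proteases were abundant and little different between the libraries. Of 16 genes of cathepsins and other intracellular proteases, mostly cysteine proteases, 11 were measured and Casp8, an apoptotic protease, was the 1 called lower, with 2.09 RPKM at P28 and 5.22 at P07. Ctsh, cathepsin H, which takes part in surfactant protein processing, had 106 RPKM at P28 and 128 at P07. Ctsc had 73.6 and 58.1 RPKM, and Ctsd 22.7 and 26.6. The median log2 ratio of the list was 0.03, against -0.08 for all measured genes, of which 1.96% were called lower. With equal totals the median was -0.29 against -0.38. Casp8 was then still the 1 called lower, against 4.61% of all measured genes.

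Of 30 genes for serpin receptors, cofactors and folding helpers, 21 were measured, and Hspg2 (perlecan, a heparan sulfate proteoglycan) was the 1 called lower, with 3.21 RPKM at P28 and 8.81 at P07. The heparan sulfate carrier Sdc4 had 118 RPKM at P28 and 94.4 at P07. The chaperone gene Hspa5 had 77.7 and 62.1 RPKM, and Anxa2 had 45.0 and 56.9. None was called higher, and the median log2 ratio was 0.16. With equal totals the median was -0.22, and 2 were called lower, Hspg2 among them. Among all measured genes 1.96% were called lower and 1.18% higher, or 4.61% and 0.673% with equal totals. Of 9 neutrophil and mast cell markers in the table, 6 were listed at 0 in both libraries, Elane and Mpo among them, with sums of 0.455 RPKM at P28 and 2.45 RPKM at P07. These sums were mostly Kit, with 0.455 RPKM at P28 and 1.85 at P07, while S100a8 had 0 and 0.579.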

How the data were processed

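RNA of sorted type 2 cells was reverse transcribed, made into Nextera XT libraries and sequenced as paired reads, per the labels' protocols. Per the file headers, the authors deposited RPKM, with a column for each sample, and 0 columns were left unused. TopHat, TopHat2 2.0.9 and GRCm38 (mm10) are named, without a role, in the submitters' processing notes. The sources used here do not give the counter, annotation or filters.

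Low RPKM values multiplied by the length of genes with 1 RefSeq-linked GENCODE transcript length were whole multiples of a step, to within 0.05, for 64.8% of 1833 genes at P28 and 65.9% of 1959 at P07, where chance gives 10%. Read numbers follow from these steps of 0.0408 and 0.057 RPKM per read on 1 kilobase. They are approximate for genes with several lengths, whose mean was used, and assume that a step is 1 read. PCR copies were not removed by molecular identifiers, so reads are not all independent.

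A call was a 2-fold difference on log2(RPKM + 1) among genes reaching 1 RPKM in either library. The pseudocount understates differences of low genes. There was no test. The relaxed hinge form was chosen after the strict one had been tried. The call and intervals were also run on simulated reads with counting error only. Such a run cannot show how they behave with other sources of error. Positions are GENCODE M21 on GRCm38, promoters RefSeq GRCm38.p6 (52 of 62 genes matched). Protein sequences were not used here, so hinges were searched in translated coding sequences and printed as bases.

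The values of 1 member are not reported here. Members and gene lists were chosen with earlier results of these data known. Named were all members at 1 RPKM, lower members by their mean (2 per clade) or their interval, in each list the 3 highest means and up to 5 calls, and in marker lists that bear on a result the 2 highest means. Elane, Mpo, Dcn, Anxa1, Spink5, Timp2, Akap5, Ddx3y, Serpina3c, Ctsg, Gzmb, Plg, Plau, Plat, Pdgfra, Lum, and members named as listed at 0 or in a cluster were chosen after their values were seen. Python 3.11.15 and scipy 1.17.1 were used.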

Additional observations from a re-analysis of the deposited data

How the results depend on the processing

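The set of 8 genes reaching a level in at least 1 library kept its size at 0.5 RPKM, at 2 RPKM and after rescaling to equal totals. The split of 8 at P28 and 7 at P07 stayed with equal totals. It became 8 and 8 at 0.5 RPKM, and 7 and 7 at 2 RPKM, where Serpinb8 fell short at P28 and Serpind1 at P07. The count of serpins called 2-fold apart, 1 as reported, was 2 with a pseudocount of 0.1 (Serpind1 added as higher), 0 with a pseudocount of 5, and 2 with equal totals (Serpinb6b added as lower). It was 1 with a filter of 5 RPKM, with upper quartile scaling and with the median of all genes set to 0. In the last of these Serpinf1 was barely past the threshold, at -1.00075. It was also 1 without a filter. That setting could add no call, because genes below 1 RPKM in both libraries cannot differ 2-fold with a pseudocount of 1. Over all genes these settings gave 226 higher and 530 lower with a pseudocount of 0.1, 39 and 34 with 5, and 65 and 445 with equal totals, against 114 and 189. The summed serpin ratio of 0.689 became 0.523 with equal totals and 0.788 without Serpinb6b. Genes apart in the 5 other lists together (antiproteases, serine and intracellular proteases, partners, collagens) numbered 10 as reported and 24 with equal totals, of which 6 and 14 were in the collagen list. The median log2 ratio of the serpins ran from -0.48 to -0.09 over the settings with a filter. Without a filter it was 0, over 62 rows of which 31 were listed at 0 in both libraries. The log2 ratio of Serpinf1 ran from -1.42 to -0.70. The ratio of Serpinb6a changed side with the median set to 0 (0.05) and with upper quartile scaling (0.00047), as did that of Serpine2 with equal totals (-0.32). Intervals excluded 1 for 5 genes with either transcript length. No paired analysis was possible because each age has 1 library, and no replicate could be left out. Members under about 3 reads cannot be told from 0 at these depths.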
